A study of Mus musculus with 5 samples.

Results

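The annexins are a family of calcium-dependent membrane-binding proteins, and 10 of their genes, Anxa1 to Anxa9 and Anxa11, were followed here by symbol among the 24347 genes of the deposited tables. They had 14 transcript models, 1 for each of 6 genes and 2 for each of the other 4 (Anxa6, Anxa7, Anxa8 and Anxa9), and the models of a gene were summed. The study sorted Krt6a+ cells (2 libraries, numbered 2 and 3), described in the labels as precancerous stem cells positive for keratin 6a, and WAP+ cells (3 libraries, numbered 1 to 3), positive for the whey acidic milk protein, and asked how their expression differed. Both were taken from mammary tissue with precancerous lesions in MMTV-Wnt-1 mice, which carry a Wnt-1 transgene under the MMTV long terminal repeat in the mammary epithelium, on a background mixed from FVB, SJL and C57BL/6; no age is given for the mice. Every library was made from amplified cDNA of a small pool of cells isolated by flow cytometry with an antibody to TVA, and how TVA marked either population is not stated in the labels. Levels are FPKM, fragments per kilobase of transcript normalized to the mapped total of each library, so they can be compared between genes of different length.

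Annexins share a core of repeated domains that binds negatively charged phospholipids when calcium rises, and each carries its own N-terminal tail that binds partners such as S100 proteins. They are known for roles in membrane repair, vesicle traffic and the cortical actin skeleton. Several are abundant in epithelia, where annexin A1 is a substrate of transglutaminase in the cornified envelope of the epidermis and annexin A2 forms a complex with S100A10.

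No annexin passed the test of the difference between the populations. Of the 10 genes, 9 reached the filter of FPKM 1 or more in at least 2 libraries, 8 of them in every library, and Anxa9 was listed at 0 throughout. Among the 9, 0 were higher and 0 lower at an adjusted p under 0.05 (limma, Benjamini-Hochberg over 9682 genes), where 0.258% of all tested genes were higher and 0.434% lower. At an unadjusted p under 0.05, 3 were higher in Krt6a+ libraries (Anxa3, Anxa8 and Anxa11) and 2 lower (Anxa5 and Anxa6), 5 of 9 against 17.1% of all tested genes. After scaling, the Krt6a+ and WAP+ values did not overlap for 4 members higher in Krt6a+ (Anxa3, Anxa7, Anxa8 and Anxa11) and 2 lower (Anxa5 and Anxa6), against 17.4% of all tested genes in each direction. The median log2 difference of the 9, Krt6a+ minus WAP+, was 0.34 against -0.01 over all tested genes, and the median size of the difference, sign left out, was 1.40 against 0.73. Nothing in the labels says that libraries came from separate animals, so these p-values measure the spread between the libraries, which may be technical.

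**Figure D1:**
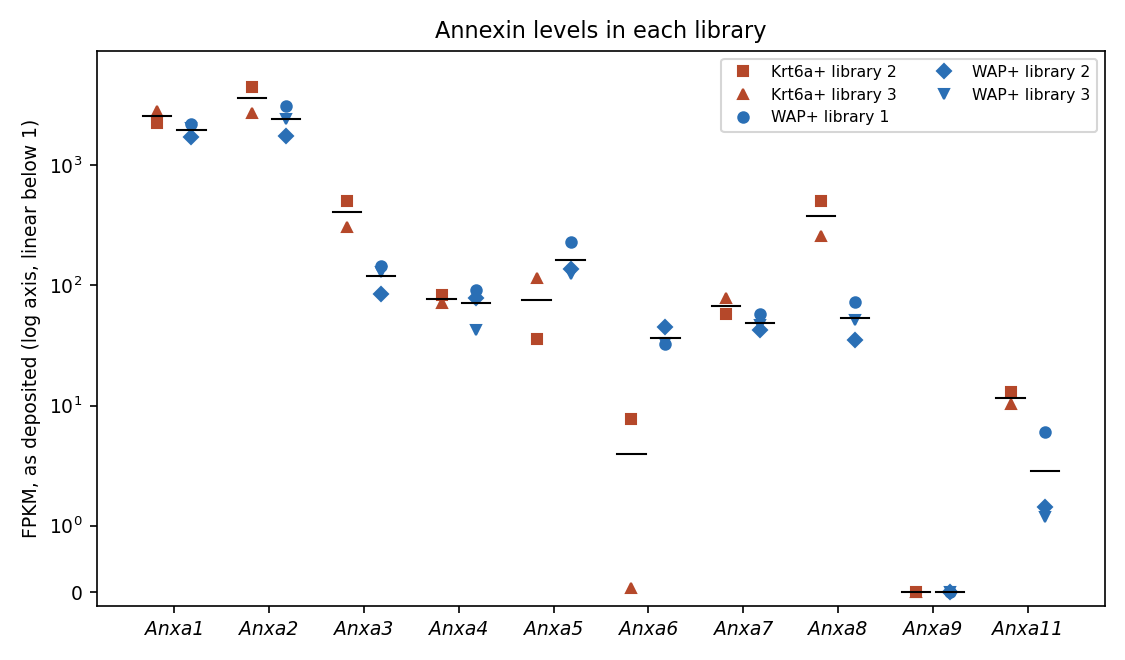
FPKM of the 10 annexins (y axis, logarithmic and linear below 1) in each library, with Krt6a+ libraries in red, WAP+ libraries in blue and the mean of each population as a black line. Anxa1 and Anxa2 lie above all other annexins in all 5 libraries, Anxa3 and Anxa8 are higher in both Krt6a+ libraries, and Anxa5 and Anxa6 are higher in the 3 WAP+ libraries.

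Anxa1 and Anxa2 made up most of the annexin transcript in both populations. In mm10, Anxa1 lies on chromosome 19 from 20373434 to 20390671 and Anxa2 on chromosome 9 from 69453683 to 69491785. Anxa1, an effector of glucocorticoids in inflammation, had FPKM 2259 and 2851 for Krt6a+ numbers 2 and 3 against 2193, 1711 and 2033 for WAP+ numbers 1, 2 and 3. The deposited values of the populations did not overlap, but after scaling they did. Its log2 difference was 0.25 ± 0.33 (SE), with a 95% interval from -0.51 to 1.00 (limma, adjusted p = 0.758). Anxa2, which with S100A10 binds plasminogen and tissue plasminogen activator at the cell surface, had FPKM 4498 and 2753 among Krt6a+ libraries against 3105, 1757 and 2414 among WAP+ libraries. The second Krt6a+ value fell inside the WAP+ range. The log2 difference of Anxa2 was 0.45 ± 0.41 (SE), with an interval from -0.48 to 1.39 (limma, adjusted p = 0.617), and without Krt6a+ library 2 it was 0.00. The ratio of Anxa2 to Anxa1 was 1.99 and 0.97 among Krt6a+ libraries against 1.42, 1.03 and 1.19 among WAP+ libraries, so the 2 Krt6a+ libraries lay at opposite ends of the range. Together the pair held 84.9% and 87.0% of the summed annexin FPKM among Krt6a+ libraries against 89.3%, 89.1% and 91.2% among WAP+ libraries. The annexin sum was 2.06% and 1.55% of all FPKM in Krt6a+ libraries against 1.14%, 0.753% and 1.16% in WAP+ libraries.

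Anxa8 had the highest positive difference of the family. Annexin A8 is known as an anticoagulant protein that binds phospholipids and as a gene of stratified and ductal epithelia. Its FPKM was 501 and 257 among Krt6a+ libraries against 72.9, 35.2 and 51.4 among WAP+ libraries, so the lower Krt6a+ value was above all WAP+ values. After scaling the means were 370 ± 201 (SD, n = 2) for Krt6a+ and 53.8 ± 13.4 (SD, n = 3) for WAP+. On the log2(FPKM + 1) scale the difference was 2.68 ± 0.46 (SE), a fold of 6.39, with an interval from 1.60 to 3.75. It fell just short of the threshold (limma, adjusted p = 0.0520) and ranked 79 of 9682 genes by the size of the moderated statistic. Without Krt6a+ library 3 it was 3.26 and passed (limma, adjusted p = 0.0256), and without library 2 it was 2.10 and did not (0.0992). In each of these refits 1 Krt6a+ library remained, and its spread was taken from the other samples.

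Anxa3, whose product is known as lipocortin III, lies on chromosome 5 from 96793385 to 96845968. By deposited FPKM it showed the same order of libraries as Anxa8. After scaling, WAP+ libraries 1 and 3 changed places for Anxa3 but not for Anxa8. The FPKM of Anxa3 was 503 and 307 among Krt6a+ libraries against 144, 84.9 and 130 among WAP+ libraries, with no overlap. After scaling the means were 393 ± 170 (SD, n = 2) for Krt6a+ and 123 ± 27.8 (SD, n = 3) for WAP+, which differed by 1.62 ± 0.41 (SE) in log2 terms, short of the threshold (limma, adjusted p = 0.111). In both genes, Krt6a+ library 2 was the highest and WAP+ library 2 the lowest of the 5. Anxa3 and Anxa8 together held 12.6% and 8.76% of the annexin FPKM in Krt6a+ libraries against 3.66%, 3.09% and 3.72% in WAP+ libraries. Keratins of the basal and luminal epithelial layers are given beside these values. With Epcam and Cdh1 they made 7 tested epithelial genes, of which 1 passed as higher and 0 as lower (limma, adjusted p under 0.05). Over all tested genes 0.258% were higher and 0.434% lower. All luminal keratins were short of the threshold. The basal keratins went in the direction of Anxa3 and Anxa8: Krt5 reached 434 and 374 FPKM across the Krt6a+ group and 22.4, 13.4 and 34.7 across the WAP+ group, and Krt14 reached 2284 and 2263 against 936, 130 and 862. The luminal keratins went the other way: Krt8 reached 66.2 and 719 against 1664, 1917 and 1681, Krt18 353 and 1283 against 4018, 3335 and 3534, and Krt19 412 and 803 against 1860, 1463 and 1206. The part of these keratin differences in the annexin values was not tested. These are pools of cells, in which fewer cells of a type and less RNA per cell cannot be told apart.

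The Anxa8 models that received the reads differed between libraries. The gene lies on chromosome 14 from 34085979 to 34100568 in mm10, on the plus strand, and its models NM_013473 (1879 bases) and NM_001281845 (1801 bases) differ by 78 bases of coding sequence, or 26 codons, at the end of exon 8 of 12, at chr14:34094414-34094491. All Anxa8 FPKM was assigned to the longer model in both Krt6a+ libraries and in WAP+ libraries 1 and 3, and to the shorter model in WAP+ library 2, where the longer one was listed at 0 with an upper bound of 0.178. The stretch is shown because the lengths of the 2 models differ by exactly these bases; it is read from the GENCODE M21 transcript matched to NM_013473, with the 78 bases in capitals and 12 bases on either side in lower case, which the shorter model joins directly:
Anxa8 exon 8 end: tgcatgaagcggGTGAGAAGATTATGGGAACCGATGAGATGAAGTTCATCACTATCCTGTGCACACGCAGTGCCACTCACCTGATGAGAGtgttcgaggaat
With 1 library on the shorter model and no read counts over this junction used here, the difference has no replicate. It does move the gene value when only 1 row is kept: with the highest row per symbol the log2 difference of Anxa8 was 4.48 (limma, adjusted p = 0.271), because the FPKM of WAP+ library 2 sat on the other row.

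**Figure D2:**
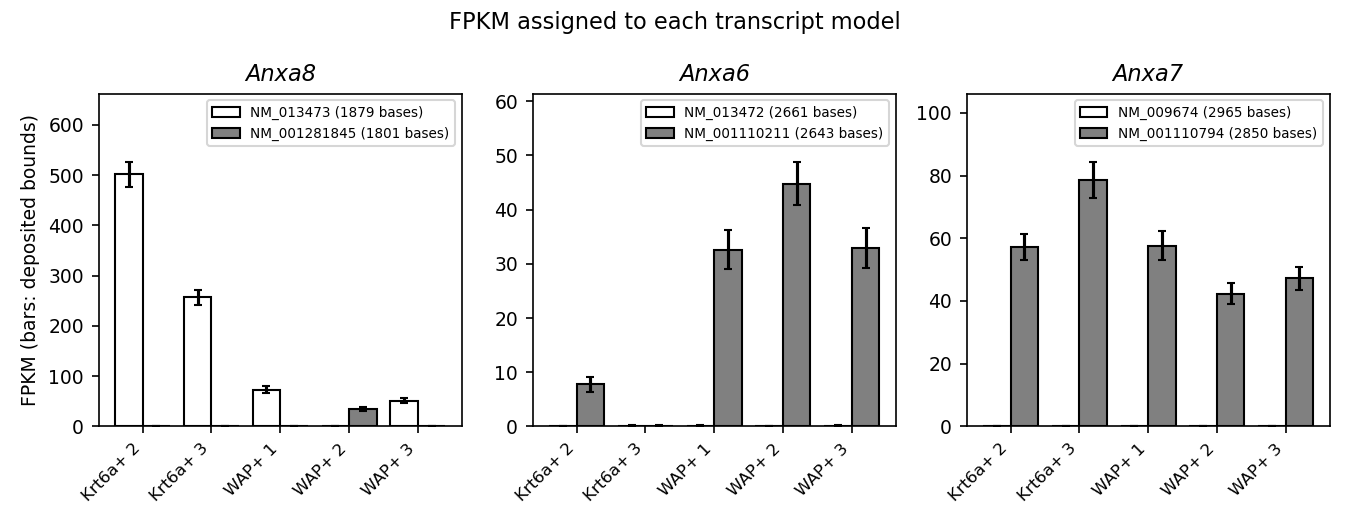
FPKM of the 2 transcript models of Anxa8, Anxa6 and Anxa7 (y axis; bars with the bounds deposited for each value) in the 5 libraries, with the longer model in white and the shorter in grey. Anxa8 sits on the longer model except in WAP+ library 2, while Anxa6 and Anxa7 sit on the shorter model wherever they reach FPKM 1.

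Promoter windows were available in the RefSeq table (GRCm38.p6, the assembly of mm10) for 8 of the 10 genes, all but Anxa3 and Anxa6. The 250 bases before the start are shown for Anxa8, the gene with the largest positive difference, and for Anxa2, the most abundant, with motif matches on either strand in capitals. The motifs searched were the TATA box, written TATAAA, found in 12.4% of 32851 such windows of the table; the CCAAT box by its name (33.9%); the GC box, written GGGCGG (32.7%); the AP-1 motif, written TGANTCA (6.75%); and the STAT motif, written TTCNNNGAA (7.02%). The first window is chr14:34085729-34085978 on the plus strand and the second chr9:69453433-69453682 on the plus strand:
Anxa8 promoter: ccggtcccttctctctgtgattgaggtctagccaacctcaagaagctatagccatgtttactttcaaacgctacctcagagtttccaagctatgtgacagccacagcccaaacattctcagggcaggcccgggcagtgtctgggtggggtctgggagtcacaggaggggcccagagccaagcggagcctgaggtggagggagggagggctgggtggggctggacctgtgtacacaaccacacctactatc
Anxa2 promoter: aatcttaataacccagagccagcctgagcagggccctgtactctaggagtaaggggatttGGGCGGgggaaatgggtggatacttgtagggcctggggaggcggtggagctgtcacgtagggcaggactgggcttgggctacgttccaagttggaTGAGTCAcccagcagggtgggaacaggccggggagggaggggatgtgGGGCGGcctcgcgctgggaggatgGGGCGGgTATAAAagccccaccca
The Anxa2 window held 3 GC box matches that do not overlap, 1 AP-1 match beginning 95 bases before the start and 1 TATA box match beginning 17 bases before it. The Anxa8 window held none of the 5 motifs. Anxa1 had 1 TATA box match, beginning 32 bases before the start. A match is a run of letters and not a measured site.

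Anxa6 and Anxa5 had the negative differences of the family, with higher values in WAP+ libraries. Annexin A6 is known for a doubled core and for binding to membranes and actin, and annexin A5 for binding phosphatidylserine, for which it is used as a stain of dying cells. Anxa6 had FPKM 7.76 and 0.0703 among Krt6a+ libraries against 32.6, 44.8 and 32.9 among WAP+ libraries. The WAP+ values lay close together and above both Krt6a+ values, of which that of library 3 was close to 0. The log2 difference was -3.65 ± 0.87 (SE), with an interval from -5.65 to -1.65, and did not pass (limma, adjusted p = 0.0982). It was -5.19 without Krt6a+ library 2, where it passed (limma, adjusted p = 0.0130), and -2.10 without library 3 (0.105). In library 3 the value of each Anxa6 model had a lower bound of 0, so that library sets no lower limit to the level.

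Anxa5, on chromosome 3 from 36448924 to 36475887, had FPKM 35.8 and 115 among Krt6a+ libraries against 231, 136 and 125 among WAP+ libraries. The upper Krt6a+ value came close to the lowest WAP+ value without reaching it, and their deposited bounds, 109 to 122 and 118 to 132, overlapped. After scaling the means were 69.3 ± 46.3 (SD, n = 2) for Krt6a+ and 165 ± 32.9 (SD, n = 3) for WAP+, which differed by -1.40 ± 0.49 (SE) in log2 terms, short of the threshold (limma, adjusted p = 0.198). It was -2.12 without Krt6a+ library 3 and -0.67 without library 2. The ratio of Anxa8 to Anxa5 was 14.0 and 2.24 among Krt6a+ libraries against 0.315, 0.259 and 0.412 among WAP+ libraries: the Krt6a+ libraries held more Anxa8 than Anxa5 and the WAP+ libraries the reverse.

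Markers of other cells were also read in these libraries. The summed FPKM of 5 myoepithelial markers was 1.64 and 3.08 among Krt6a+ libraries against 48.8, 48.6 and 29.1 among WAP+ libraries, the direction of Anxa5 and Anxa6. Oxtr went the other way, with 0.262 in Krt6a+ library 2 and 0 in all WAP+ libraries. Cnn1 overlapped, with 0.689 and 0 against 0.0998, 2.57 and 2.44. The 5 adipocyte markers summed to 0 and 0 against 2188, 67.2 and 23.5, nearly all of it Fabp4, while Adipoq, Plin1 and Cfd were listed at 0 in every library. The 5 endothelial markers summed to 23.4 in WAP+ library 1 and to between 0.0349 and 0.744 in the other 4, and WAP+ library 1 had the highest Anxa5. Without WAP+ library 1 the log2 difference was -1.26 for Anxa5 and -3.83 for Anxa6 (limma, adjusted p = 0.345 and 0.202). Leaving out a library takes out more than these markers, so their part in the annexin values was not tested.

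The tables carry 2 models of Anxa6, which spans 54978962 to 55033471 on chromosome 11, minus strand. They differ by an 18-base exon, exon 21 of 26 in the longer one, that adds 6 codons at chr11:54987051-54987068. Outside Krt6a+ library 3, all Anxa6 FPKM was assigned to NM_001110211, the model without the exon, and in that library the models had 0.0353 and 0.0350. The exon is shown in capitals, with 12 bases of the neighbouring exons on either side in lower case, since its absence is what the tables assign in 4 of 5 libraries:
Anxa6 exon 21: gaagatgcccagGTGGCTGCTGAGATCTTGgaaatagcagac
For NM_013472, the model with the exon, the upper bounds in the 4 libraries ran from 0.121 to 0.168.

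**Figure D3:**
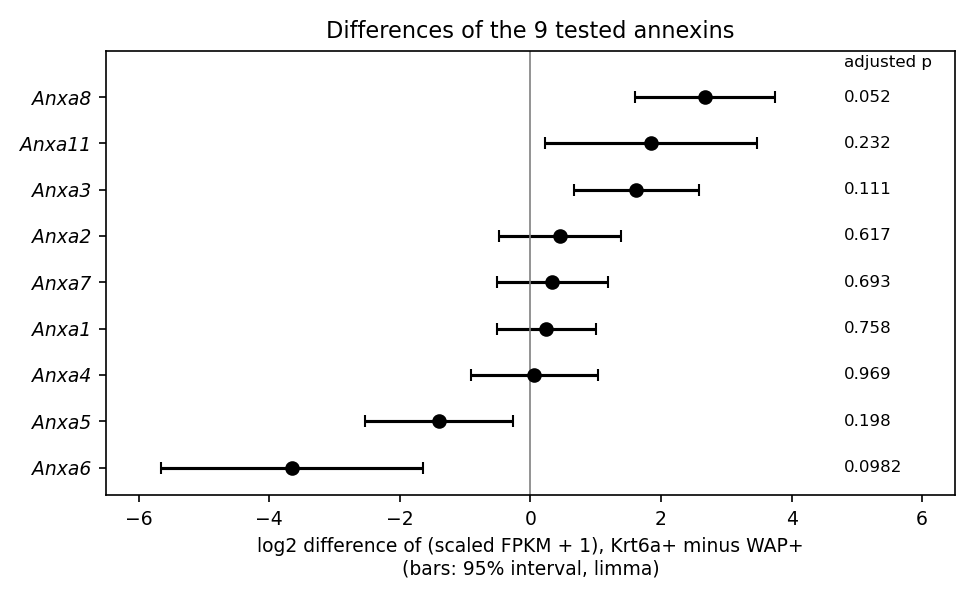
Log2 difference of (scaled FPKM + 1), Krt6a+ minus WAP+, of the 9 tested annexins (x axis) with its 95% interval as a bar and the limma adjusted p at the right. Anxa8, Anxa11 and Anxa3 have intervals above 0, Anxa5 and Anxa6 below 0, and no adjusted p is under 0.05.

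The other members had differences of smaller size or low values. In mm10, Anxa4 lies on chromosome 6 from 86736840 to 86793584, Anxa7 on chromosome 14 from 20455261 to 20480133, Anxa11 on chromosome 14 from 25842155 to 25886804, and the longer of the Anxa9 loci on chromosome 3 from 95296094 to 95307176. Anxa4, an annexin of secretory epithelia, had FPKM 83.6 and 70.7 among Krt6a+ libraries against 92.3, 79.3 and 42.6 among WAP+ libraries, with a log2 difference of 0.06 ± 0.42 (SE) and an interval from -0.91 to 1.03 (limma, adjusted p = 0.969). Its direction was not stable: it was -0.15 without Krt6a+ library 2 and -0.22 without WAP+ library 3. Anxa7, known as synexin for its part in granule fusion, had FPKM 57.4 and 78.6 against 57.6, 42.4 and 47.2. These overlapped as deposited and not after scaling, and the log2 difference was 0.34 ± 0.37 (SE), with an interval from -0.52 to 1.19 (limma, adjusted p = 0.693). All Anxa7 FPKM was assigned to NM_001110794 (2850 bases), and NM_009674 (2965 bases) was listed at 0 in every library.

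Anxa11, an annexin that binds RNA granules and S100A6, was the lowest member detected in WAP+ libraries. Its FPKM was 13.0 and 10.3 among Krt6a+ libraries against 6.00, 1.42 and 1.17 among WAP+ libraries, with no overlap. The log2 difference was 1.84 ± 0.70 (SE) and did not pass (limma, adjusted p = 0.232). The WAP+ values spread 5.13-fold. Anxa9 was listed at 0 on both of its models in all 5 libraries, with upper bounds from 0.133 to 0.231. An exact 0 in these tables can be a failed estimate, since Gapdh was listed at 0 in 3 libraries and Eno1 in 5, so Anxa9 is given as listed at 0 only. Anxa10 and Anxa13, annexins outside the 10, were also listed at 0 throughout.

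**Figure D4:**
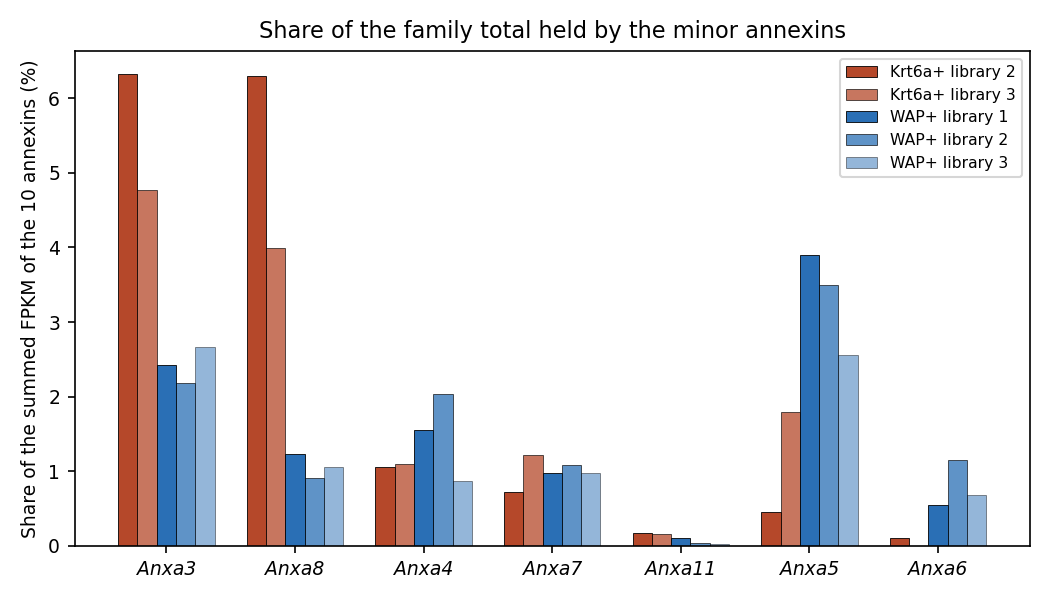
Share of the summed FPKM of the 10 annexins (y axis, percent) held by 7 members other than Anxa1 and Anxa2, with 1 bar per library, red for Krt6a+ and blue for WAP+; Anxa9, at 0, is left out. Anxa3 and Anxa8 hold 3.99% to 6.32% each in Krt6a+ libraries and 0.903% to 2.66% in WAP+ libraries, and Anxa5 holds 2.56% to 3.90% in WAP+ libraries.

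Ranked by mean scaled FPKM, the order in Krt6a+ libraries was Anxa2, Anxa1, Anxa3, Anxa8, Anxa4, Anxa5, Anxa7, Anxa11, Anxa6 and Anxa9. Neighbours whose library ranges overlapped there were Anxa2 with Anxa1, Anxa3 with Anxa8, Anxa4 with Anxa5 and Anxa5 with Anxa7. In WAP+ libraries the order was Anxa2, Anxa1, Anxa5, Anxa3, Anxa4, Anxa8, Anxa7, Anxa6, Anxa11 and Anxa9, with overlap between Anxa2 and Anxa1, Anxa5 and Anxa3, Anxa4 and Anxa8, Anxa8 and Anxa7, and Anxa7 and Anxa6. Anxa8 was the fourth in both Krt6a+ libraries and the fifth, the sixth or the eighth in WAP+ libraries, whereas Anxa5 was the fifth or the seventh in Krt6a+ libraries and the third or the fourth in WAP+ libraries.

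Of 35 genes in 5 lists of annexin partners and pathways, 26 were tested and 0 passed (limma). At an unadjusted p under 0.05 (limma), 5 were higher and 0 lower, so 5 of 26 against 17.1% of all tested genes in either direction. Of all 9682 tested genes, 742 were higher and 915 lower at that p. The 5 include Dysf and Serpinb2, which reached the filter only through the Krt6a+ libraries and so could only come out higher. The count is close to that share and is not read as a result about the partners. By list, those 5 were 1 of 5 tested scaffold and trafficking genes, 2 of 6 membrane repair and calpain genes and 2 of 7 plasminogen genes, with 0 of 6 S100 and EF-hand partners and 0 of 2 phospholipases. S100a10 and S100a11 each had FPKM above that of Anxa1 in all 5 libraries. S100a10, the partner of annexin A2, had FPKM 3517 and 3682 among Krt6a+ libraries against 3966, 3848 and 4336 among WAP+ libraries, so that log2 values differed by -0.29 ± 0.35 (SE; limma, adjusted p = 0.724). The ratio of S100a10 to Anxa2 was 0.782 and 1.34 among Krt6a+ libraries against 1.28, 2.19 and 1.80 among WAP+ libraries. S100a11, the partner of annexin A1, had FPKM 5101 and 3580 against 4908, 3039 and 2933 (log2 0.16 ± 0.38 SE; limma, adjusted p = 0.884). Among the 6 S100 and EF-hand partners the largest statistics were those of Sri, sorcin, a partner of annexin A7 (log2 -1.02 ± 0.51 SE), and S100a4 (-0.73 ± 0.86 SE).

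Ahnak, the large scaffold that binds the annexin A2 and S100A10 complex, had FPKM 168 and 153 among Krt6a+ libraries against 79.8, 50.7 and 71.3 among WAP+ libraries. The populations did not overlap, and the log2 difference of 1.15 ± 0.37 (SE) did not pass (limma, adjusted p = 0.173). Vps4b, of the membrane-scission machinery, followed it in that list (log2 -0.47 ± 0.60 SE). Among membrane repair genes and calpains, Dysf encodes the repair protein dysferlin. It had FPKM 3.74 and 5.34 among Krt6a+ libraries but only zeros among WAP+ libraries. Cast, the calpain inhibitor calpastatin, had 71.6 and 59.7 against 52.0, 16.2 and 16.8 (limma, adjusted p = 0.261). In the plasminogen list, Serpinb2, an inhibitor of plasminogen activators, had 2.74 and 45.8 among Krt6a+ libraries but only zeros among WAP+ libraries. Dysf and Serpinb2 reached the filter only through the Krt6a+ libraries, so their adjusted p-values are left out, and neither passed. Both were among the partner genes counted as higher above. An exact 0 can be a failed estimate here, as said for Anxa9. In the list of receptors and phospholipases, Pla2g4a had 2.16 and 2.21 against 0.0786, 1.26 and 0.730 and Pla2g6 2.12 and 0 against 0.125, 3.60 and 0.0785. The receptor genes Fpr1, Fpr2, Fpr3 and Cmklr1, named after their values were seen, were listed at 0 in all 5 libraries.

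The genes whose pattern over the 5 libraries lay closest to that of Anxa2, the most abundant member, were Aup1, Dnajc1 and Ankrd54. Their centred log2 values differed from those of Anxa2 by a root mean square of 0.03, 0.07 and 0.09. This likeness rests on 5 libraries and was not tested.

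As a check of the labels, Krt6a had FPKM 1380 and 1133 among Krt6a+ libraries against 168, 50.0 and 120 among WAP+ libraries, and Wap was listed at 0 in the former and had 50.1, 126 and 13.9 in the latter. Epcam, an epithelial marker, had 549 and 908 among Krt6a+ libraries against 1408, 1108 and 1493 among WAP+ libraries. Both Krt6a+ values of Epcam lay below all WAP+ values. Cdh1, another epithelial marker, overlapped, with 33.3 and 66.7 against 60.2, 59.3 and 76.9. The 8 leukocyte markers summed to 6.49 and 21.4 against 9.82, 27.8 and 24.3, most of it Cd68, which was above 0 in all 5 libraries; Cd74 was above 0 in the 3 WAP+ libraries, Cd79a was 3.59 in Krt6a+ library 3, and Ptprc, Cd3e, Lyz2, Itgam and Adgre1 were listed at 0 throughout. The 6 neutrophil markers summed to at most 0.624. The 6 fibroblast markers summed to 57.5 and 210 against 17.1, 8.60 and 84.2. Most of this was Dcn, with 49.4 and 210 against 16.3, 8.60 and 67.0. Other fibroblast markers were highest in WAP+ library 3: Col1a2 had 4.12 and 0 against 0.352, 0 and 6.66, and Col3a1 1.51 and 0 against 0, 0 and 6.00. The number of fibroblast markers at FPKM 1 or more was 4 and 1 against 1, 1 and 5. Libraries held 8112 to 8900 genes at FPKM 1 or more. The tables give no read totals; interval widths read as counting error gave a rough depth of 4200000 to 6000000 fragments per library.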

How the data were processed

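Per the submitters' processing notes, the authors used TopHat and Cufflinks with build mm10; no source used here gives their versions or the filtering of reads. Each deposited table lists, per the file headers, FPKM and its lower and upper bounds for 34535 transcripts, normalized by the authors for length and mapped fragments. The deposited coverage signal, a depth per base, was not used in any test. cDNA was made with SMART-Seq v4 and Nextera, per the labels' protocols, and the strand was not used.

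Tables were joined by transcript ID, since their row order differed. FPKM was summed by symbol and divided by a median-ratio factor per library computed over 5334 genes that reached FPKM 1 in every library (0.980 and 1.13 for Krt6a+; 1.14, 0.909 and 0.873 for WAP+). Genes at FPKM 1 or more in at least 2 libraries were tested on log2(scaled FPKM + 1) with limma 3.58.1 in R 4.3.3 (eBayes with trend, two-sided, Benjamini-Hochberg); a fold on this scale understates changes of low genes. Errors are SD over libraries of scaled FPKM or moderated SE. An exact permutation test of 2 against 3 libraries cannot go below 0.1 one-sided and was not run. The genes named were the 10 annexins, Krt6a and Wap, S100a10, S100a11 and Ahnak, the 2 genes of each partner list with the largest statistic, and the 3 closest to the most abundant annexin, except that 1 gene of the partner lists is not reported here; markers were picked for naming once their values were known. The members and lists were chosen with earlier results of these data known. Starts in the files count from 0 and are given from 1.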

Additional observations from a re-analysis of the deposited data

How the results depend on the processing

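Over 15 alternatives, 127 of the 135 member values kept their direction and side of the threshold, 6 passed where they had not, and 2 reversed, both of Anxa4 (-0.15 without Krt6a+ library 2, -0.22 without WAP+ library 3; over the libraries left out in turn its values ran from -0.22 to 0.29). The count of annexins higher in Krt6a+ libraries was 0 and became 1, Anxa8, with a pseudocount of 5 (limma, adjusted p = 0.0499), a filter of FPKM 5 in 2 libraries (0.0376), only genes above 0 in all libraries (0.0278) and quantile normalization (0.0386); over all its alternatives the adjusted p of Anxa8 ran from 0.0256 to 0.271. Leaving out each library gave 0 to 1 higher (1 without Krt6a+ library 3) and 0 to 1 lower (Anxa6, without Krt6a+ library 2). The median difference ran from 0.25 to 0.74. With the replicate number as a block, the count stayed at 0 and Anxa8 had a log2 difference of 2.81 (limma, adjusted p = 0.0933). Same-numbered libraries had deviations from their population means correlated at 0.05 and 0.00. With 2 Krt6a+ libraries their deviations are mirror images, so these correlations cannot tell whether same-numbered libraries share a source. Over all genes, 25 were higher and 42 lower; these became 6 and 20 with a pseudocount of 0.1, 2 and 3 with no filter, 71 and 92 with the stricter filter, 69 and 64 when zeros were not allowed, 7 and 9 with no trend, 8 and 16 with the highest row, and 15 and 19 with the replicate block, while higher genes became 41 with a pseudocount of 5 and 39 with quantile normalization, and lower genes 27 with no scaling. Without one library they ran from 2 to 44 and from 3 to 103. The tables hold no read counts, so no limit from depth was computed.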
